A study of Danio rerio with 18 samples.

Results

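The question here is how the effect of ablating the retinal pigment epithelium (RPE) of larval zebrafish had changed between 2 and 7 days post-injury (dpi). For each gene the difference between ablated and unablated libraries at 7 dpi was taken, and the same difference at 2 dpi was subtracted from it. The comparison used 12 of the 18 libraries of the series, 3 in each of 4 groups: ablated at 7 dpi, unablated at 7 dpi, ablated at 2 dpi and unablated at 2 dpi. All larvae of these groups had been kept in 1.5X phenylthiourea, a blocker of melanin formation, between 0.25 and 5 days post-fertilisation (dpf). Ablated larvae then received 10 mM metronidazole for 24 hours, from 5 to 6 dpf, and unablated larvae did not. The labels describe no unablated larvae given the drug, so drug and ablation cannot be told apart. Each library was made by the SMART-Seq v4 and Nextera XT kits from at most 1000 eGFP-positive cells sorted out of dissociated eyes and labelled as RPE. The labels used here do not name the promoter that drives eGFP, nor do they say whether replicates are separate clutches, so p-values measure the spread between these libraries alone.

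The RPE is the pigmented sheet between the photoreceptors and the choroid. It regenerates the visual chromophore, engulfs shed outer segments and carries nutrients to the retina. In zebrafish the RPE can grow back after injury, which in other tissues that regenerate involves early cytokine and growth factor signals, renewed ribosome production and cell division, and later a return of the genes of the working tissue. In a difference of effects each ablated library is set against unablated cells of the same age.

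Libraries held between 21.9 and 40.5 M counts. Markers of RPE, such as rpe65a, dct and pmela, summed to 42100 to 92300 CPM in ablated and 54800 to 99700 CPM in unablated libraries at 7 dpi, against 66600 to 75400 CPM in ablated and 115000 to 156000 CPM in unablated libraries at 2 dpi. CPM is the usual unit of counts scaled to library size, here after TMM scaling in edgeR. None of the 10 RPE markers was at 0 in any group. Across genes, replicate libraries had pairwise correlations of 0.763 to 0.941, and the lowest values were those between ablated libraries at 7 dpi. Bulk libraries cannot tell fewer cells of a type from less RNA per cell.

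In the 18472 genes with enough counts to test, 443 (2.4%) had an ablation effect that differed between 7 and 2 dpi at an adjusted p below 0.05 (edgeR quasi-likelihood test with the replicate pairs as a block, Benjamini-Hochberg adjustment). The effect was lower at 7 dpi in 251 of them (1.36% of tested genes) and higher in 192 (1.04%). At an unadjusted p below 0.05 the effect differed in 3294 genes (17.8%). limma-voom called 867 of the 18472 genes, and DESeq2 called 2134 of the 28645 genes to which it gave a p-value. The filter inside DESeq2 left fewer genes with an adjusted p. The share called among those was thus larger than 2134 of 28645, and it was not counted. The median difference over all tested genes was 0.00 on the log2 scale. In most genes of both directions the effect was smaller in size at 7 dpi than at 2 dpi, and in many it was of the other sign. Of the 251 genes with the lower effect, 237 were called higher in ablated libraries at 2 dpi, and their median effect was -0.03 at 7 dpi and 2.34 at 2 dpi. Of the 192 with the higher effect, 175 were called lower in ablated libraries at 2 dpi, and their median effect was 0.61 at 7 dpi and -2.20 at 2 dpi. The size of the effect was smaller at 7 dpi in 238 of the 251 and in 168 of the 192. Among all 2303 genes called at 2 dpi it was smaller at 7 dpi in 2260. Genes called for the difference tend to have a large effect at 2 dpi by selection. Fitted effects at the 2 times had opposite signs in 133 of the 251 and in 148 of the 192. At 7 dpi the effect was below 1 in size in 223 and in 124 of these genes. Over all tested genes the median size of the effect was 0.567 at 7 dpi and 0.759 at 2 dpi. Opposite signs and sizes below 1 were not counted over all tested genes. By itself, the ablation effect at 7 dpi reached the threshold in 0 genes by edgeR, with 2436 genes (13.2%) at an unadjusted p below 0.05, while limma-voom called 19 and DESeq2 986. At 2 dpi it was called higher in 1236 genes (6.69%) and lower in 1067 (5.78%). Among the genes nearest the threshold, nop10 and dio2 lay just inside it, both at adjusted p = 0.0499, and zgc:162396 and ppp1r13ba lay just outside, both at 0.0501. The calls depend on the replicate pairs and on every pair at 2 dpi. Without the replicate block 0 genes were called (1480 at an unadjusted p below 0.05), and without the 2 dpi pair of replicate 1, 2 or 3 the number was 1, 0 and 0. Without the pair of replicate 1 at 7 dpi it was 76. Each of the 443 genes kept the direction of its difference in all of these fits. The genes were selected for that difference in the same libraries, so the kept direction is no independent support.

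**Figure D1:**
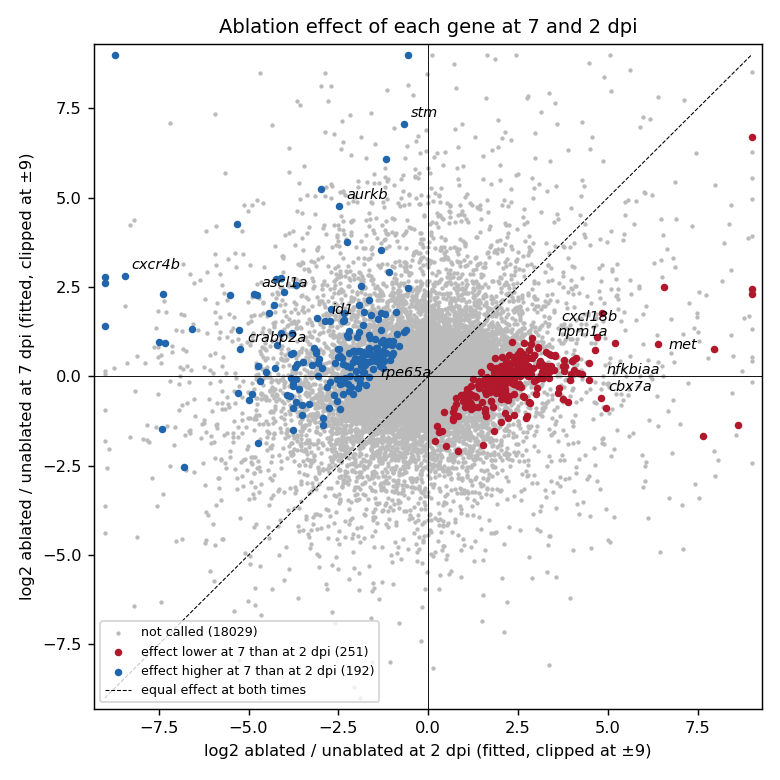
Each point is a tested gene, placed by its fitted log2 ratio of ablated to unablated libraries at 2 dpi (horizontal) and at 7 dpi (vertical), and the dashed line marks equal effects. The 251 genes with a lower effect at 7 dpi lie mostly to the right and near 0 on the vertical axis (median 2.34 at 2 dpi and -0.03 at 7 dpi), and the 192 with a higher effect lie to the left (median -2.20 at 2 dpi and 0.61 at 7 dpi).

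The difference of effects was made up unequally by the ablated and the unablated libraries. In the 251 genes with the lower effect, the level in ablated libraries was lower at 7 dpi than at 2 dpi in 231, with a median log2 change of -1.48, and the level in unablated libraries was higher in 211, with a median change of 0.89. The change between times was larger in the ablated libraries for 159 of these genes and larger in the unablated libraries for 92. In the 192 genes with the higher effect, the median log2 change between times was 1.02 in ablated and -1.64 in unablated libraries, and it was the larger one in the unablated libraries for 117. Over all tested genes the median change was 0.00 in ablated and 0.03 in unablated libraries. Of these 18472 genes, ablated levels were lower at 7 dpi in 9221 and unablated levels higher in 9462. The difference of effects is the ablated change minus the unablated change, so genes called for it tend to move in these directions by selection. Larval age and time after injury differ between the 2 dpi and 7 dpi libraries and cannot be told apart in these changes of level. Where a library name contains a date, that date also differs between the times and cannot be separated from them. The other library names contain none, so a difference of date is not shown for those libraries.

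Ribosome biogenesis was, of the 25 pathway lists examined, the one with the largest share of members called by edgeR. The lists were chosen with earlier results of these data known. Of the 45 tested ribosome biogenesis genes, 23 (51.1%) had a lower effect at 7 dpi, against 1.36% of all tested genes, and 0 a higher one. The difference was negative in 43. The median effect over the 45 genes was 0.30 at 7 dpi and 2.44 at 2 dpi. The 6 replicate pairs gave list medians of 0.25, 0.06 and 0.28 at 7 dpi, against 2.69, 2.19 and 2.1 at 2 dpi, so the pairs of the 2 times lay far apart. The summed level of the list was 1190 to 3050 CPM in ablated and 1080 to 2750 CPM in unablated libraries at 7 dpi, against 7720 to 8400 CPM in ablated and 1020 to 2050 CPM in unablated libraries at 2 dpi. The change of level between the times in ablated libraries was negative in 42 of the 45 genes (median -1.50), and the median change in unablated libraries was 0.54.

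Among the members, npm1a encodes nucleophosmin, an abundant nucleolar chaperone (ENSDARG00000014329, chromosome 10, 22064600 to 22075667 in GRCz10). It stood at 80.9, 252 and 428 CPM in ablated and 66, 152 and 364 CPM in unablated libraries at 7 dpi. At 2 dpi, npm1a stood at 2168, 1596 and 1386 CPM in ablated and 95, 87.5 and 139.8 CPM in unablated libraries. All 3 ablated libraries at 2 dpi lay above every other library, and at 7 dpi the ablated and unablated ranges overlapped. The log2 difference of effects was -3.59 (SE 0.39, adjusted p = 0.0199), with fitted effects of 0.42 at 7 dpi and 4.01 at 2 dpi. nip7, an assembly factor of the large ribosomal subunit (ENSDARG00000059075, chromosome 18, 5229548 to 5236026), had 6.96, 20.7 and 23.9 CPM in ablated and 7.03, 18.5 and 20.5 CPM in unablated libraries at 7 dpi. At 2 dpi, nip7 stood at 60.3, 297 and 469 CPM in ablated and 5.82, 31.1 and 62.8 CPM in unablated libraries. Within every pair at 2 dpi the ablated library was the higher, while the pairs at 7 dpi were nearly level. The difference was -3.05 (SE 0.28, adjusted p = 0.0168). nolc1, a nucleolar protein that binds small nucleolar ribonucleoproteins, had a difference of -3.23 (SE 0.39, adjusted p = 0.0212), and rrp1, a processing factor of ribosomal RNA, of -2.25 (SE 0.28, adjusted p = 0.0233). Their effects at 7 dpi were -0.57 and 0.19. gpatch4, which was not in the list, encodes a G-patch protein and followed the same course. It had 2.4, 12.2 and 22.3 CPM in ablated and 2.45, 10.5 and 17.8 CPM in unablated libraries at 7 dpi. At 2 dpi, gpatch4 stood at 31.2, 105 and 108 CPM in ablated and 1.32, 7.64 and 7.61 CPM in unablated libraries. Its difference was -3.87 (SE 0.36, adjusted p = 0.0168). The methyltransferase gene fbl (fibrillarin), nop58, ncl (nucleolin), bop1, pes and mrto4 were also called lower. Of the 4 myc genes tested in this list mych was called (-2.68, adjusted p = 0.0387), while myca, mycb and mycn were not. The 74 tested genes of cytosolic ribosomal proteins did not share this pattern of calls. None of them was called by edgeR, limma-voom or DESeq2, and 0 reached an unadjusted p below 0.05, with a median difference of -0.09 and median effects of 0.30 at 7 dpi and 0.38 at 2 dpi. rpl19, the member with the highest level, had a difference of -0.33 (SE 0.31, adjusted p = 0.655).

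**Figure D2:**
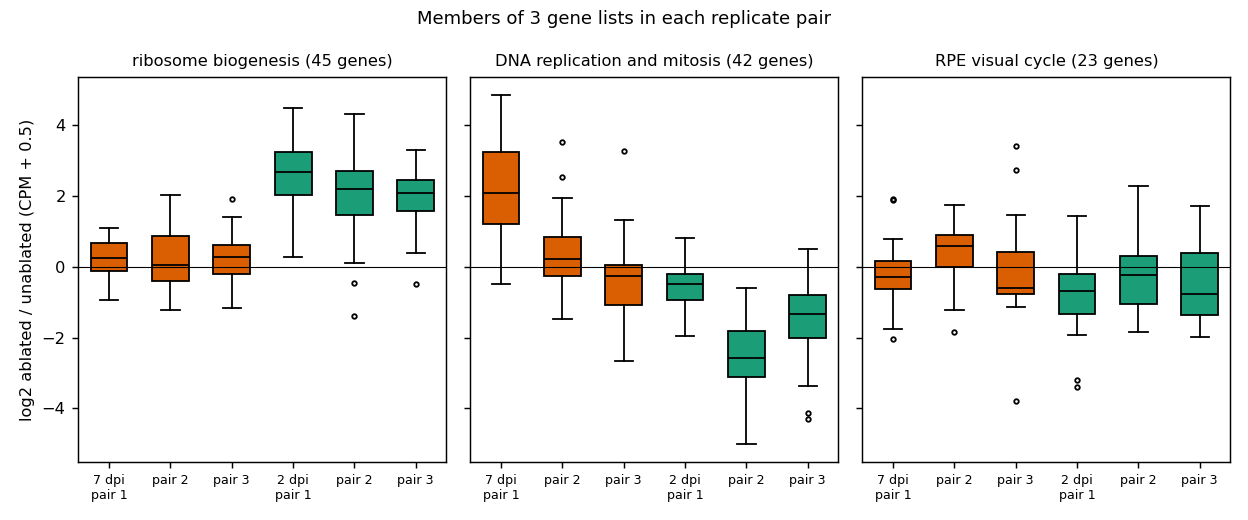
Boxes give the log2 ratio of ablated to unablated CPM (0.5 added to each) of the members of 3 gene lists in each replicate pair, 7 dpi pairs in orange left of 2 dpi pairs in green, with quartiles, whiskers to 1.5 times the interquartile range and single genes beyond. Ribosome biogenesis has medians of 0.06 to 0.28 in the 7 dpi pairs and 2.1 to 2.69 in the 2 dpi pairs, DNA replication and mitosis varies widely among pairs, and the visual cycle medians lie between -0.77 and 0.58.

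The gene with the smallest unadjusted p (1.22e-06) was cbx7a, which shared the smallest adjusted p with nip7, gpatch4 and tpma. It encodes a chromobox subunit of Polycomb repressive complex 1 (ENSDARG00000038025, chromosome 3, 24855597 to 24864069). It stood at 31.1, 318 and 403 CPM in ablated and 37, 494 and 779 CPM in unablated libraries at 7 dpi. At 2 dpi, cbx7a stood at 904, 335 and 508 CPM in ablated and 17.8, 14.6 and 26.4 CPM in unablated libraries. At 2 dpi the ablated libraries were all far above the unablated ones, and at 7 dpi the unablated library was the higher in each of the 3 pairs. Its log2 difference was -5.43 (SE 0.44, adjusted p = 0.0168). Most of this came from the unablated libraries, whose mean log2 level was 3.64 higher at 7 dpi than at 2 dpi, while that of the ablated libraries was 1.75 lower. met, the receptor of hepatocyte growth factor, showed the same kind of course. It had 3.2, 25.2 and 45.5 CPM in ablated and 1.1, 11 and 43.4 CPM in unablated libraries at 7 dpi. At 2 dpi, met stood at 21.8, 19.9 and 44.5 CPM in ablated and 0.232, 0 and 1.27 CPM in unablated libraries. Unablated cells at 2 dpi held almost none of it, and the groups at 7 dpi overlapped, with a difference of -5.48 (SE 0.92, adjusted p = 0.0301). gas6, which bridges phosphatidylserine on dying cells to TAM receptors of phagocytes, had 13.6, 115 and 249 CPM in ablated and 29.1, 141 and 255 CPM in unablated libraries at 7 dpi. At 2 dpi, gas6 stood at 161, 53.9 and 119 CPM in ablated and 15.3, 5.45 and 6.67 CPM in unablated libraries. The unablated libraries at 2 dpi were below all but 1 of the other libraries. Its difference was -4.09 (SE 0.40, adjusted p = 0.0191), and the mean log2 level changed by 3.54 in unablated but only by -0.46 in ablated libraries.

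Some of the largest differences belonged to genes of low or uneven level. scpp8, a gene of the secretory calcium-binding phosphoprotein family, had 2.27, 0.0478 and 0.775 CPM in ablated and 3.53, 2.52 and 1.21 CPM in unablated libraries at 7 dpi. At 2 dpi, scpp8 stood at 70.9, 1.26 and 9.65 CPM in ablated and 0.556, 0 and 0 CPM in unablated libraries. The ablated library of replicate 1 held most of its counts at 2 dpi. Its difference was -9.32 (SE 1.48, adjusted p = 0.0275). ano5b, an anoctamin gene, had 0.108, 0.478 and 2.48 CPM in ablated and 0.025, 0.489 and 1.42 CPM in unablated libraries at 7 dpi. At 2 dpi, ano5b stood at 10.4, 1.96 and 4.85 CPM in ablated and 0.0695, 0 and 0 CPM in unablated libraries. Only 3 counts lay behind the unablated 2 dpi value, where the ratio of ablated to unablated counts was 227 with a 95% counting interval of 77.4 to 1110, so its fitted difference of -7.19 (SE 1.44, adjusted p = 0.0452) depends on the prior count. dixdc1a, a DIX domain gene of the Wnt pathway, had a difference of -5.82 (SE 1.17, adjusted p = 0.0452), with 34.8 CPM in ablated replicate 1 at 2 dpi and 2.78 and 8.36 CPM in the others. casq2, a calsequestrin gene, adam8b, a membrane metalloprotease gene, and rbms1a, an RNA-binding protein gene, had differences of -4.57, -4.40 and -4.22 (adjusted p = 0.0441, 0.0329 and 0.0357). bag3, a co-chaperone of HSP70 in selective autophagy, had 2.51, 22.5 and 80.8 CPM in ablated and 11.1, 23.4 and 84.1 CPM in unablated libraries at 7 dpi. At 2 dpi, bag3 stood at 166, 74.9 and 42 CPM in ablated and 9.2, 3.38 and 5.29 CPM in unablated libraries. It was above its unablated partner in every pair at 2 dpi and below it in every pair at 7 dpi, with a difference of -4.59 (SE 0.67, adjusted p = 0.0267).

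The 3 genes il11b, edn2 and dkk1a, which encode secreted signalling proteins, were called lower. They were almost or fully without counts in unablated cells at 2 dpi, and for these the values are given without a fitted fold. il11b, an IL-6 family interleukin, had 0.0648, 3.44 and 7 CPM in ablated and 0, 0 and 0.0888 CPM in unablated libraries at 7 dpi. At 2 dpi, il11b stood at 85.5, 139.6 and 245 CPM in ablated and 0, 0 and 0 CPM in unablated libraries. It was thus also above unablated partners in every pair at 7 dpi, at a far lower level (adjusted p = 0.0859 for the effect at 7 dpi, the lowest of any gene). edn2, an endothelin gene, had 0.0432, 4.02 and 2.46 CPM in ablated and 0, 0.944 and 0.474 CPM in unablated libraries at 7 dpi. At 2 dpi, edn2 stood at 20.6, 20.2 and 35.8 CPM in ablated and 0, 0 and 0 CPM in unablated libraries. dkk1a, a secreted inhibitor of Wnt signalling, had 0.0432, 0.814 and 9.3 CPM in ablated and 0.1, 0.0699 and 0.77 CPM in unablated libraries at 7 dpi. At 2 dpi, dkk1a stood at 30.2, 11.4 and 30.4 CPM in ablated and 0, 0.0439 and 0 CPM in unablated libraries. For all 3 genes the ablated libraries at 2 dpi were the highest of the 12, and adjusted p was 0.049 for il11b, 0.0241 for edn2 and 0.049 for dkk1a. With robust estimation off it was 0.0508 for both il11b and dkk1a. Of 16 alternative fits, some with fewer libraries, the call was kept in 8 for il11b, 11 for edn2 and 5 for dkk1a. No count over the 3 unablated libraries at 2 dpi allows a level of up to 0.0277 CPM, which covers counting error only.

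Other genes of cytokine and growth factor pathways were also called lower. socs3b, which restrains JAK-STAT signalling in a feedback loop, had 32.9, 52.5 and 101 CPM in ablated and 29.5, 51 and 113 CPM in unablated libraries at 7 dpi. At 2 dpi, socs3b stood at 317, 38.9 and 72.5 CPM in ablated and 47.8, 8.61 and 6.38 CPM in unablated libraries. Ablated exceeded unablated cells in each pair at 2 dpi and the pairs at 7 dpi were level, with a difference of -2.79 (SE 0.38, adjusted p = 0.0246). nfkbiaa, which encodes the NF-kB inhibitor IkB alpha, had 5.14, 80.7 and 13.4 CPM in ablated and 3.98, 39.9 and 16.1 CPM in unablated libraries at 7 dpi. At 2 dpi, nfkbiaa stood at 24.6, 102 and 53.8 CPM in ablated and 1.14, 3.42 and 3.21 CPM in unablated libraries. Unablated libraries at 2 dpi were the lowest of the 12, and the difference was -4.09 (SE 0.44, adjusted p = 0.0199). cxcl18b, a chemokine that attracts neutrophils in zebrafish, had 23.7, 291 and 279 CPM in ablated and 16.1, 69.5 and 240 CPM in unablated libraries at 7 dpi. At 2 dpi, cxcl18b stood at 644, 956 and 2311 CPM in ablated and 24.6, 33.5 and 33.6 CPM in unablated libraries. Ablated libraries at 2 dpi were the 3 highest, and ablated cells were higher in each pair at 7 dpi as well, with effects of 0.94 at 7 dpi and 5.21 at 2 dpi and a difference of -4.27 (SE 0.59, adjusted p = 0.0251). The ERK pathway inhibitors dusp6 and spry4 had differences of -1.89 (SE 0.31, adjusted p = 0.0277) and -2.45 (SE 0.49, adjusted p = 0.0441), and both stood above unablated partners in all pairs at 2 dpi and below them in all pairs at 7 dpi. By list, 2 of 25 tested genes of IL-6 family ligands and JAK-STAT signalling were called lower and 0 higher (median difference -0.70). Of 42 growth factor signal genes 4 were called lower and 0 higher (median -0.85), and of 32 chemokine and cytokine genes 2 were called lower and 1 higher (median -0.59). Over all tested genes 1.36% were called lower and 1.04% higher.

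**Figure D3:**
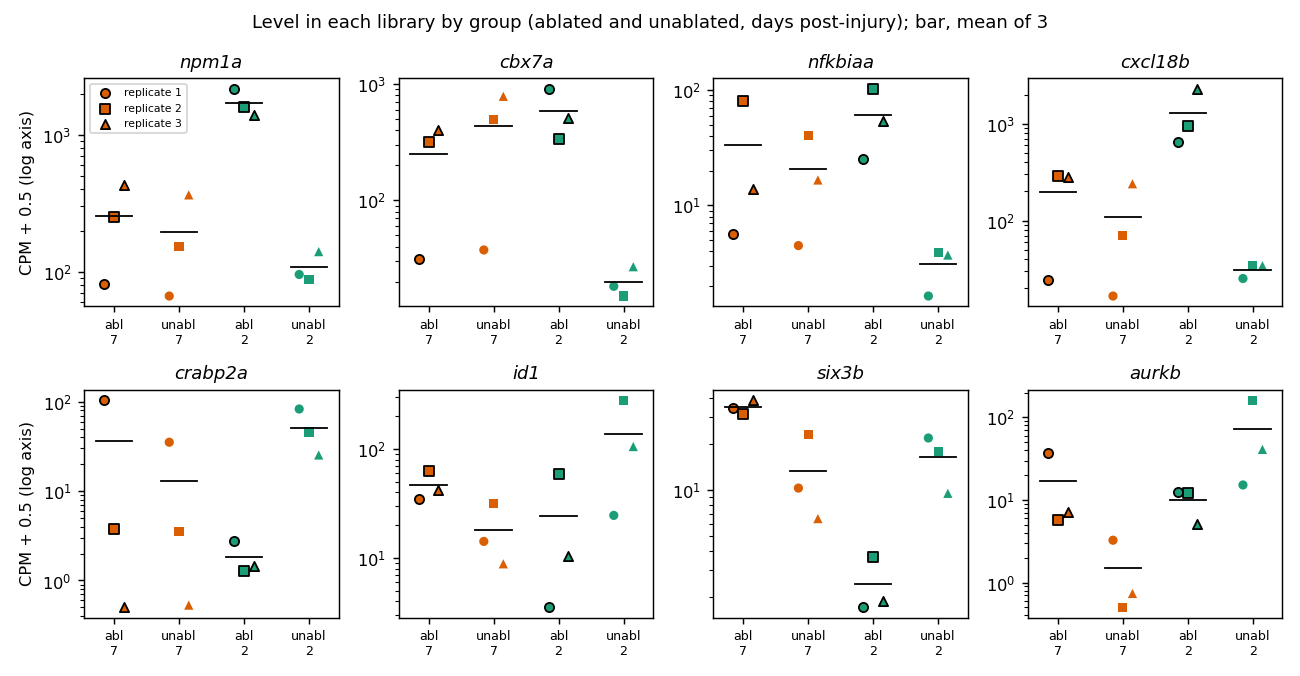
Level of 8 genes in each library as CPM plus 0.5 on a log axis, with 7 dpi groups (orange) left of 2 dpi groups (green), ablated points outlined, replicates by symbol and the bar at the mean of 3 libraries. For npm1a and cxcl18b the ablated 2 dpi libraries stand highest, for cbx7a the unablated 7 dpi mean (437 CPM) is far above the unablated 2 dpi mean (19.6 CPM), and for six3b the ablated 2 dpi libraries stand lowest.

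A few chaperones and metabolic enzymes were called lower at 7 dpi as well, in lists whose shares of calls are to be read against the 1.36% of all tested genes called lower. hspd1, the mitochondrial HSP60 chaperonin, had 17.6, 22.3 and 40.5 CPM in ablated and 15.7, 12 and 65.3 CPM in unablated libraries at 7 dpi. At 2 dpi, hspd1 stood at 141, 123 and 164 CPM in ablated and 14.8, 9.13 and 21.4 CPM in unablated libraries. The 3 ablated libraries at 2 dpi were above all 9 others, and the difference was -3.19 (SE 0.46, adjusted p = 0.0264). hspa9, the mitochondrial HSP70, had a difference of -2.00 (SE 0.32, adjusted p = 0.0275), and hyou1, a chaperone of the endoplasmic reticulum, of -2.27 (SE 0.41, adjusted p = 0.0378). These were 2 of 40 tested immediate early and stress genes (0 higher, median difference -1.1) and 1 of 35 chaperones of the endoplasmic reticulum (0 higher, median -0.35). In the integrated stress response list 1 of 30 was called lower and 0 higher (median -0.52), the pseudokinase gene trib3, with a difference of -1.90 (SE 0.36, adjusted p = 0.0404). The hexokinase gene hk1, first enzyme of glycolysis, had 6.87, 32.4 and 106 CPM in ablated and 5.03, 20.4 and 95.6 CPM in unablated libraries at 7 dpi. At 2 dpi, hk1 stood at 42.4, 58.3 and 82.3 CPM in ablated and 3.68, 6.67 and 12.8 CPM in unablated libraries. Each ablated library at 2 dpi was above all unablated libraries of that time, and the difference was -2.69 (SE 0.35, adjusted p = 0.0233). The aldolase gene aldoaa and the enolase gene eno1a followed at -1.67 (SE 0.27, adjusted p = 0.0275) and -2.08 (SE 0.39, adjusted p = 0.0387). These 3 were the only calls among 34 glycolysis and lactate genes, whose median difference was -0.17, with median effects of 0.13 at 7 dpi and 0.21 at 2 dpi.

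Single genes of other lists were called lower as well, against 1.36% of all tested genes. vmp1, a membrane protein of the endoplasmic reticulum needed for autophagosome formation, had a difference of -1.83 (SE 0.28, adjusted p = 0.0275) and with gas6 made 2 of 40 phagocytosis and lysosome genes called lower, although the median difference of that list was positive at 0.41. tagln3b, a transgelin that binds actin, had a difference of -2.45 (SE 0.50, adjusted p = 0.0475) and was 1 of 32 junction and cytoskeleton genes (median -0.37). nfil3, a basic leucine zipper repressor, had 6.7, 39.2 and 155 CPM in ablated and 5.58, 18.3 and 115 CPM in unablated libraries at 7 dpi. At 2 dpi, nfil3 stood at 92.5, 26.5 and 24.4 CPM in ablated and 6.88, 4.04 and 1.38 CPM in unablated libraries. Its difference was -2.93 (SE 0.45, adjusted p = 0.0275), and it was 1 of 29 circadian clock genes (median -0.07). Replicates of unablated cells at 7 dpi spanned 5.58 to 115 CPM for nfil3, so its level at that time varied widely among libraries of a group.

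**Figure D4:**
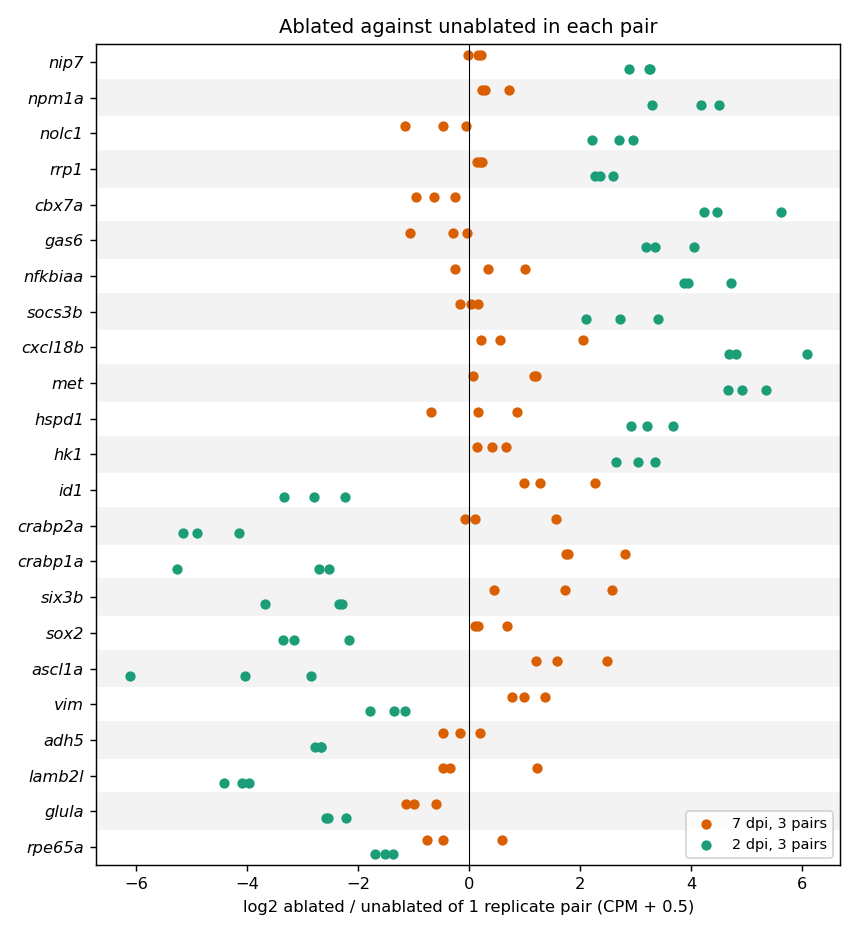
Log2 ratio of ablated to unablated CPM (0.5 added to each) in each of the 3 replicate pairs at 7 dpi (orange, upper point row of each gene) and at 2 dpi (green, lower row) for 23 named genes. For the first 12 genes the 2 dpi pairs lie to the right of the 7 dpi pairs, and for the last 11, from id1 to rpe65a, they lie to the left.

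Among the 192 genes with the higher effect at 7 dpi, the inhibitor of basic helix-loop-helix factors id1 (ENSDARG00000040764, chromosome 11, 18541849 to 18542961) had the smallest adjusted p of those named with at least 3 counts in each group. It had 34.1, 62 and 42 CPM in ablated and 13.7, 31 and 8.35 CPM in unablated libraries at 7 dpi. At 2 dpi, id1 stood at 3.03, 58.9 and 9.88 CPM in ablated and 24.1, 280.5 and 105 CPM in unablated libraries. Ablated libraries were below their unablated partners in all pairs at 2 dpi and above them in all pairs at 7 dpi, and the difference was 4.42 (SE 0.47, adjusted p = 0.0199). adh5, a formaldehyde-oxidising dehydrogenase, had 64.2, 79.4 and 29.1 CPM in ablated and 71.8, 111 and 25.3 CPM in unablated libraries at 7 dpi. At 2 dpi, adh5 stood at 9.43, 34.2 and 33.6 CPM in ablated and 62.7, 238 and 217 CPM in unablated libraries. The pairs at 7 dpi were nearly level, those at 2 dpi were all lower in ablated cells, and the difference was 2.59 (SE 0.29, adjusted p = 0.0203). lamb2l, a laminin chain gene, had 45.5, 22.8 and 4.21 CPM in ablated and 63.4, 9.44 and 5.45 CPM in unablated libraries at 7 dpi. At 2 dpi, lamb2l stood at 1.19, 2.22 and 2.05 CPM in ablated and 35.4, 41.9 and 42.7 CPM in unablated libraries. The 3 ablated libraries at 2 dpi were the lowest of all 12. Its difference was 4.63 (SE 0.55, adjusted p = 0.0212).

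Cellular retinoic acid binding proteins carried 2 of the calls. crabp2a had 104, 3.25 and 0 CPM in ablated and 34.8, 3.01 and 0.0296 CPM in unablated libraries at 7 dpi. At 2 dpi, crabp2a stood at 2.28, 0.782 and 0.934 CPM in ablated and 82.5, 45.4 and 24.9 CPM in unablated libraries. Its level at 7 dpi ranged from 104 to 0 CPM among ablated replicates and alike among unablated ones, whereas at 2 dpi all ablated libraries were below 3 CPM. The difference was 6.01 (SE 0.68, adjusted p = 0.0203). At 2 dpi, crabp1a stood at 1.28, 4.39 and 5.25 CPM in ablated and 9.8, 187 and 36.8 CPM in unablated libraries. It had a difference of 6.23 (SE 0.91, adjusted p = 0.0267), and was higher in ablated cells in every pair at 7 dpi. These were 2 of 20 tested retinoic acid genes called higher, with 0 called lower and a median difference of 0.30. Over all tested genes 1.04% were called higher.

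Some transcription factors of the eye field and of retinal progenitors had a higher effect at 7 dpi. Of 40 tested eye factors 5 (12.5%) were called higher by edgeR and 0 lower, against 1.04% of all tested genes called higher. The difference was positive in 29 and negative in 11, with a median difference of 1.12 and median effects of -0.01 at 7 dpi and -1.11 at 2 dpi. six3b had 33.7, 31 and 38.2 CPM in ablated and 9.81, 22.6 and 6.01 CPM in unablated libraries at 7 dpi. At 2 dpi, six3b stood at 1.21, 3.17 and 1.38 CPM in ablated and 21.4, 17.4 and 9.03 CPM in unablated libraries. The ablated libraries were the 3 highest of the 12 at 7 dpi and the 3 lowest at 2 dpi, and the difference was 4.74 (SE 0.72, adjusted p = 0.0273). sox2, a factor of neural progenitors, had 13.3, 9.52 and 5.76 CPM in ablated and 8.06, 8.78 and 5.09 CPM in unablated libraries at 7 dpi. At 2 dpi, sox2 stood at 0.303, 1.13 and 0.934 CPM in ablated and 6.67, 16.2 and 5.97 CPM in unablated libraries. All ablated libraries at 2 dpi were below every other library, and the difference was 3.99 (SE 0.67, adjusted p = 0.0299). rx2 and ascl1a, factors of retinal progenitors, had differences of 6.58 (SE 1.19, adjusted p = 0.0375) and 7.14 (SE 1.34, adjusted p = 0.0392). ascl1a had 36.8, 15.1 and 2.3 CPM in ablated and 15.7, 4.72 and 0 CPM in unablated libraries at 7 dpi. At 2 dpi, ascl1a stood at 1.12, 1 and 0.89 CPM in ablated and 11.2, 103 and 22.3 CPM in unablated libraries. Unablated replicate 2 at 2 dpi, with 103 CPM, stood apart. That library was also the highest of the 12 for the eye factor sox2, but not for six3b or rx2. Among other named genes it was the highest for id1, crabp1a, aurkb, nusap1, adh5, cxcr4b and hist1h4l_17. It was the highest as well for the summed genes of DNA replication and mitosis (10400 CPM). The RPE factors mitfa and tfec and the otx family gene otx5 were not called, with differences of 0.24, 1.56 and -0.10. vim, an intermediate filament gene, had 14.5, 56.5 and 13.4 CPM in ablated and 5.33, 28.1 and 7.64 CPM in unablated libraries at 7 dpi. At 2 dpi, vim stood at 2.4, 2.74 and 2.49 CPM in ablated and 9.52, 7.82 and 6.19 CPM in unablated libraries. Its difference was 2.69 (SE 0.42, adjusted p = 0.0275), and levels in ablated cells were above unablated partners in all pairs at 7 dpi and below them in all pairs at 2 dpi.

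Cell division genes were positive throughout, but few passed in edgeR. All 42 tested genes of DNA replication and mitosis had a positive difference (median 2.17), with median effects of 0.75 at 7 dpi and -1.59 at 2 dpi. edgeR called 2, aurkb and top2a, with 18 at an unadjusted p below 0.05, while limma-voom called 11 higher and DESeq2 15. Over all tested genes edgeR called 1.04% higher, and 17.8% had an unadjusted p below 0.05 in either direction. In both directions limma-voom called 867 of 18472 genes. DESeq2 called 2134 genes, out of fewer with an adjusted p than the 28645 with a p-value. aurkb, a kinase of chromosome segregation, had 37, 5.26 and 6.64 CPM in ablated and 2.75, 0 and 0.237 CPM in unablated libraries at 7 dpi. At 2 dpi, aurkb stood at 11.9, 11.5 and 4.67 CPM in ablated and 14.7, 161 and 40.5 CPM in unablated libraries. Its difference was 7.24 (SE 1.20, adjusted p = 0.0297). top2a, the DNA topoisomerase of dividing cells, had 40.9, 0.144 and 0.362 CPM in ablated and 3.08, 0 and 0.0296 CPM in unablated libraries at 7 dpi. At 2 dpi, top2a stood at 6.76, 1.83 and 1.02 CPM in ablated and 11.9, 21.5 and 5.52 CPM in unablated libraries. Its ablated level at 7 dpi came almost wholly from replicate 1, and the difference was 6.01 (SE 0.96, adjusted p = 0.0275). nusap1, a spindle protein outside the list, had 62.6, 4.07 and 0 CPM in ablated and 2.18, 0.035 and 0 CPM in unablated libraries at 7 dpi. At 2 dpi, nusap1 stood at 8.83, 4.13 and 2.36 CPM in ablated and 19.3, 108 and 20.6 CPM in unablated libraries. Here too replicate 1 held most counts of ablated cells at 7 dpi, and unablated replicate 2 stood highest at 2 dpi, with a difference of 8.23 (SE 1.19, adjusted p = 0.0275). List medians by pair were 2.09, 0.21 and -0.25 at 7 dpi, against -0.50, -2.58 and -1.33 at 2 dpi. Without the pair of replicate 1 at 7 dpi the median difference of the list was 1.06. Levels in unablated libraries were lower at 7 dpi than at 2 dpi in 41 of the 42 genes (median change -2.36), and those in ablated libraries had a median change of -0.35. hist1h4l_17, a histone H4 gene with near-identical copies among which reads may be split, had a difference of 6.86 (SE 1.22, adjusted p = 0.036) and 70.6 and 31.6 CPM in unablated replicates 2 and 3 at 2 dpi.

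Markers of retinal neurons and Mueller glia had their lowest summed levels in the ablated libraries at 2 dpi. Those of photoreceptors were low there too, but overlapped both 7 dpi groups. The 6 retinal neuron markers, of which 5 were tested, summed to 17 to 41.0 CPM in ablated and 12.6 to 134 CPM in unablated libraries at 7 dpi, against 2.00 to 6.36 CPM in ablated and 10.7 to 53.2 CPM in unablated libraries at 2 dpi. The 10 photoreceptor markers summed to 64.6 to 430 CPM in ablated and 63.0 to 1800 CPM in unablated libraries at 7 dpi, against 29.6 to 68.4 CPM in ablated and 75.1 to 806 CPM in unablated libraries at 2 dpi. No marker of these lists was at 0 in all libraries of a group, and 0 of each list were called by edgeR (1 of each at an unadjusted p below 0.05, and 1 of each by DESeq2). Their part in the results was not tested. The 6 Mueller glia markers summed to 2710 to 9200 CPM in ablated and 4220 to 7260 CPM in unablated libraries at 7 dpi, against 365 to 1070 CPM in ablated and 1230 to 5350 CPM in unablated libraries at 2 dpi. Their median effect was 0.26 at 7 dpi and -0.23 at 2 dpi. Summed over libraries at 7 dpi, apoeb, cahz, slc1a2b and rlbp1a held more counts in ablated than in unablated libraries (295416 against 26385 for apoeb), while glula and gfap held fewer. By replicate the list summed to 4300, 2710 and 9200 CPM in ablated and 7260, 4380 and 4220 CPM in unablated libraries at 7 dpi. Only replicate 3 was thus higher in ablated cells, and that ablated library also held 724 CPM of macrophage and microglia markers. Of the Mueller glia list only glula, glutamine synthetase, was called by edgeR (1 of 6, against 1.04% of all tested genes called higher, with 3 by DESeq2). It had 3595, 1628 and 2724 CPM in ablated and 7128, 3570 and 4113 CPM in unablated libraries at 7 dpi. At 2 dpi, glula stood at 869, 225 and 295 CPM in ablated and 5071, 1055 and 1766 CPM in unablated libraries. Ablated libraries were below their partners in every pair at both times, less so at 7 dpi, with a difference of 1.55 (SE 0.30, adjusted p = 0.0431).

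Matrix and transport genes added a few calls, in lists whose shares are to be read against the 1.04% of all tested genes called higher. lama5, a laminin chain of basement membranes, had a difference of 2.17 (SE 0.45, adjusted p = 0.0485). It and the intermediate filament gene vim were 2 of 47 members of the matrix, integrin and protease list called higher, with 0 called lower (median 0.44). slc6a6a, a taurine transporter, had 85.1, 69 and 33 CPM in ablated and 145, 101 and 71.6 CPM in unablated libraries at 7 dpi. At 2 dpi, slc6a6a stood at 1.93, 13.1 and 11.4 CPM in ablated and 44, 98.7 and 104 CPM in unablated libraries. Ablated cells were below their partners in every pair at both times, by far more at 2 dpi, and the difference was 2.71 (SE 0.45, adjusted p = 0.0294). apoc2, an activator of lipoprotein lipase, had 4.71, 1.1 and 0.233 CPM in ablated and 0.951, 0.14 and 0.148 CPM in unablated libraries at 7 dpi. At 2 dpi, apoc2 stood at 0.14, 0.391 and 0.4 CPM in ablated and 3.66, 6.85 and 7.05 CPM in unablated libraries. Its difference was 6.30 (SE 1.1, adjusted p = 0.0338). slc6a6a and apoc2 were 2 of 30 members of the solute transport list called higher, with 0 called lower (median 1.04). Of these 2 calls only slc6a6a is a solute transporter. cox6a2, a subunit of cytochrome c oxidase, was the only call among 51 nuclear genes of oxidative phosphorylation (median 0.13), with a difference of 3.96 (SE 0.65, adjusted p = 0.0277).

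Several calls rest on few libraries or few counts. stm, which encodes starmaker, known from zebrafish otolith mineralisation, had 34.9, 22 and 28.9 CPM in ablated and 0, 0.245 and 0.503 CPM in unablated libraries at 7 dpi. At 2 dpi, stm stood at 7.97, 62.8 and 40.2 CPM in ablated and 46.7, 39.9 and 49.6 CPM in unablated libraries. Of the 4 groups compared, only unablated cells at 7 dpi held little of it, and the difference was 7.74 (SE 1.26, adjusted p = 0.0277). At 4 dpi, outside the comparison, stm stood at 20.7, 21.7 and 24 CPM in ablated and 2.06, 0 and 1.75 CPM in unablated libraries. cxcr4b, a chemokine receptor, had 6.07, 30.9 and 11.9 CPM in ablated and 0.15, 8.53 and 3.05 CPM in unablated libraries at 7 dpi. At 2 dpi, cxcr4b stood at 0.0233, 0.0869 and 0 CPM in ablated and 1.99, 42.4 and 10.8 CPM in unablated libraries. The ablated 2 dpi value rests on 3 counts, where the ratio of unablated to ablated counts was 393 with a 95% counting interval of 134 to 1910, and the fitted difference of 11.25 (SE 1.29, adjusted p = 0.0204) depends on the prior count. The macrophage and microglia markers, which can carry chemokine receptors too, summed to 6.99 to 724 CPM in ablated and 6.34 to 68.2 CPM in unablated libraries at 7 dpi, against 1.35 to 13.6 CPM in ablated and 1.1 to 45.5 CPM in unablated libraries at 2 dpi. By replicate the sum was 83.2, 6.99 and 724 CPM in ablated libraries at 7 dpi. In unablated libraries at 2 dpi it was 14.3, 1.1 and 45.5 CPM. Of these 14 markers 11 were tested and 0 called by edgeR (0 at an unadjusted p below 0.05, and 1 by DESeq2). Marker c1qa was at 0 in all libraries of every group but unablated 7 dpi, c1qb and c1qc were at 0 in ablated libraries at 2 dpi, cd74a was at 0 in unablated libraries at both times, and their part in the cxcr4b result was not tested. dnah7, an axonemal dynein gene, had 0.324, 88.6 and 0.775 CPM in ablated and 0, 0 and 0.0296 CPM in unablated libraries at 7 dpi. At 2 dpi, dnah7 stood at 0.233, 104 and 206 CPM in ablated and 0, 236 and 403 CPM in unablated libraries. Adjusted p was 0.0275. The muscle genes tpma and ckma had nearly all their counts in a single library. tpma, a tropomyosin, had 2.83, 0.431 and 0.0258 CPM in ablated and 0.726, 0 and 0 CPM in unablated libraries at 7 dpi. At 2 dpi, tpma stood at 0.0466, 0 and 0 CPM in ablated and 142, 0.439 and 1.38 CPM in unablated libraries. ckma, muscle creatine kinase, had 0.627, 0.383 and 0 CPM in ablated and 0, 0.035 and 0.0592 CPM in unablated libraries at 7 dpi. At 2 dpi, ckma stood at 0.0233, 0 and 0 CPM in ablated and 71.3, 0.176 and 0.112 CPM in unablated libraries. Adjusted p was 0.0168 for tpma and 0.0387 for ckma. The 4 muscle markers summed to 1520 CPM in unablated replicate 1 at 2 dpi and to at most 3.57 CPM in the other 11 libraries.

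No gene of the RPE's own visual cycle passed the test in edgeR. Of 23 tested members 0 were called in each direction by edgeR and by limma-voom, 8 had a higher effect at an unadjusted p below 0.05, and DESeq2 called 4 higher, among them rpe65a (adjusted p = 0.0125) and rlbp1b (adjusted p = 0.0134). Over all tested genes 17.8% were at an unadjusted p below 0.05 in either direction. DESeq2 called 2134 genes in all, out of fewer with an adjusted p than the 28645 with a p-value. The list had a median difference of 0.38 and median effects of -0.03 at 7 dpi and -0.51 at 2 dpi. At 2 dpi 6 of them were called lower in ablated cells and 1 higher. rpe65a, the retinoid isomerase of the RPE (ENSDARG00000007480, chromosome 2, 2316199 to 2331029), had 17980, 18680 and 9501 CPM in ablated and 24860, 12310 and 16070 CPM in unablated libraries at 7 dpi. At 2 dpi, rpe65a stood at 3425, 7764 and 11060 CPM in ablated and 11080, 22280 and 28520 CPM in unablated libraries. Ablated libraries were below their partners in all pairs at 2 dpi, and in 2 of 3 pairs at 7 dpi. Its difference of 1.31 (SE 0.41, adjusted p = 0.142) missed the threshold, with an effect of -1.53 at 2 dpi (adjusted p = 0.0131) and -0.21 at 7 dpi. rbp4l, a retinol carrier gene, and rlbp1b, which encodes the retinaldehyde binding protein, had differences of 2.14 (SE 0.62, adjusted p = 0.118) and 1.55 (SE 0.51, adjusted p = 0.159). The ratios of rpe65a, rbp4l and rlbp1b at 7 dpi were above those at 2 dpi in all pairs, as was the case in 2275 of all tested genes (12.3%). The reverse held in 2488 (13.5%), so pair ratios did not overlap in 25.8% of tested genes. Melanin and melanosome genes had 0 calls among 17 by edgeR and by limma-voom, with 5 at an unadjusted p below 0.05 and 4 called higher by DESeq2, and a median difference of 0.10. tyrp1b, a melanosomal enzyme of the highest level among them, had a difference of 0.71 (SE 0.29, adjusted p = 0.253), and DESeq2 gave it an adjusted p of 0.0433.

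Transcripts of the mitochondrial genome had a positive difference in all 13 tested genes, with a median of 1.24 and median effects of 0.74 at 7 dpi and -0.56 at 2 dpi. edgeR called 0 of them, although all 13 had an unadjusted p below 0.05 (17.8% of all tested genes did), while limma-voom called 9 higher and DESeq2 12. mt-co2 had a difference of 1.11 (SE 0.34, adjusted p = 0.127) in edgeR, with an adjusted p of 0.045 by limma-voom and 0.0088 by DESeq2. As a share of all counts, mitochondrially encoded genes differed between ablated and unablated libraries by 6.16, 0.64 and 4.51 percentage points in the pairs at 7 dpi, against -1.70, -2.85 and -2.73 at 2 dpi. The pair differences of the 2 times did not overlap, and an exact two-sided permutation test gave p = 0.1, the smallest that 3 against 3 allows.

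**Figure D5:**
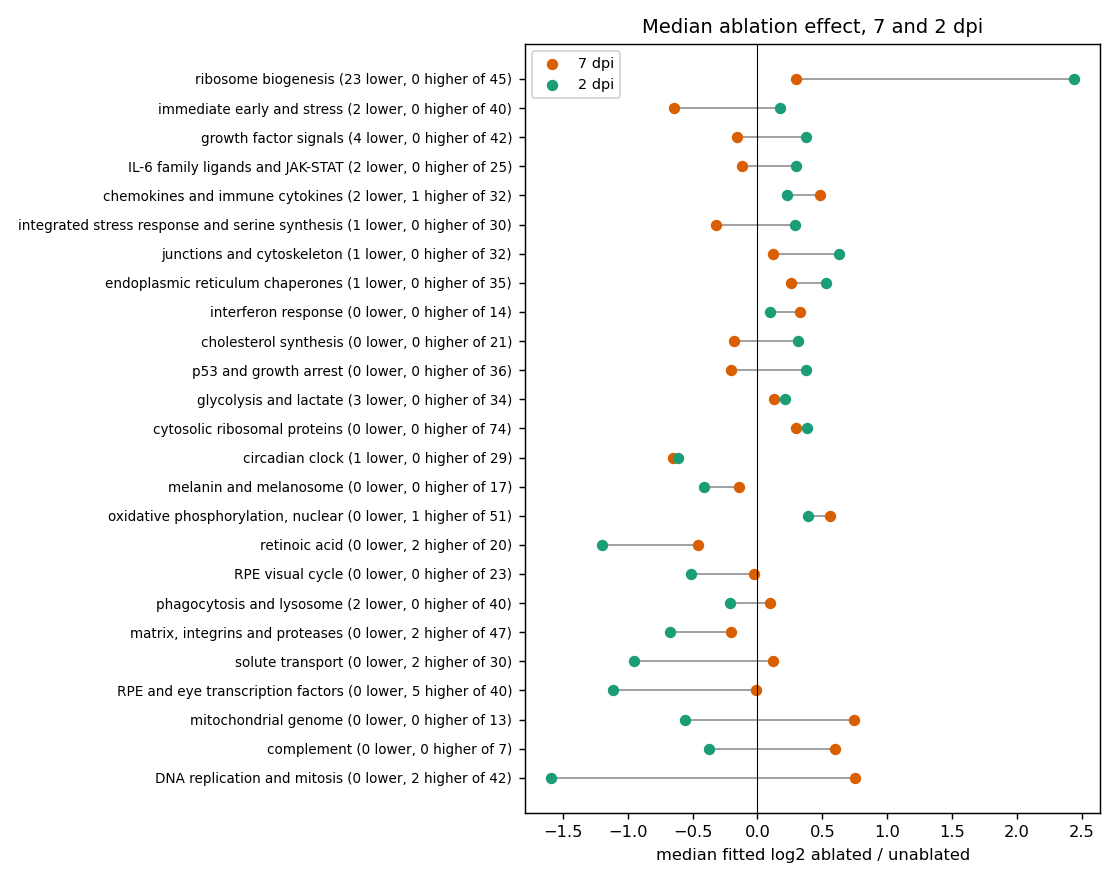
Median fitted log2 ratio of ablated to unablated libraries over the tested members of each of 25 gene lists at 7 dpi (orange) and 2 dpi (green), ordered by the median difference, with the members called lower and higher at 7 dpi in the labels. Ribosome biogenesis stands at 0.30 at 7 dpi and 2.44 at 2 dpi, and DNA replication and mitosis at 0.75 at 7 dpi and -1.59 at 2 dpi.

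The remaining lists held 0 calls in each direction by edgeR. They were 36 p53 and growth arrest genes (median difference -0.27), 14 interferon response genes (-0.34), 21 cholesterol synthesis genes (-0.31) and 7 complement genes (1.90). At an unadjusted p below 0.05 there were 9, 2, 1 and 0 of these, in the same order, against 17.8% of all tested genes. DESeq2 called 5, 2, 0 and 0, and limma-voom 3, 1, 0 and 0. Their most abundant members were btg1, an antiproliferative gene, at -0.64 (SE 0.29, adjusted p = 0.297), and b2ml, a beta-2 microglobulin, at -0.32 (SE 0.33, adjusted p = 0.69). For the sterol regulator insig1 the difference was 0.26 (SE 0.60, adjusted p = 0.882), and for masp1, a protease of the lectin pathway, -0.49 (SE 0.64, adjusted p = 0.767). The marker lists of other cells likewise held 0 calls by edgeR apart from glula, tpma and ckma. Their most abundant members had differences of 1.39 for rho (rods), -2.40 for snap25a (neurons), 2.25 for cryba4 (lens), 6.86 for apoc1 (macrophages), -1.71 for ncf1 (neutrophils), -2.07 for epcam (epithelium), 4.93 for egfl7 (endothelium), 2.10 for pdgfra (mesenchyme) and -0.48 for gch2 (other pigment cells), with adjusted p between 0.367 and 0.852. Median differences of all tested markers of these lists, in the same order, were 1.04, 0.99, 1.87, 3.90, -2.75, 0.27, 0.45, 3.39 and -0.48. For neurons and epithelium the list median thus had the other sign than the member named. The 4 tested neutrophil markers had median effects of 1.35 at 7 dpi and 4.01 at 2 dpi, unlike ncf1 (-2.71 and -0.99). The 4 erythrocyte markers had too few counts to test.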

How the data were processed

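Per the file headers, the authors deposited a table for each time with total counts and TPM per gene. TPM served only in 1 alternative. GRCz10 is given per the submitters' processing notes. Aligner, counting program and annotation: not given in the sources used here. The 2 and 7 dpi tables were joined by gene identifier. The edgeR function filterByExpr, by group, kept 18472 of the 28645 genes that had any count. TMM factors ran from 0.663 to 1.27. The robust quasi-likelihood model of edgeR 4.0.16 in R 4.3.3 held an ablation effect at each time and 6 replicate pairs as a block. Residual degrees of freedom numbered 4. The common biological coefficient of variation was 59.1%, against 80.4% with no block. P-values were adjusted over all tested genes after Benjamini and Hochberg, with a threshold of 0.05. Pair ratios use CPM plus 0.5.

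Replicate numbers come from the labels. After group means were removed, libraries of the same number and time correlated at 0.202 to 0.641, every pair above 0.1, and the highest value between different numbers was 0.213. Library names of replicates 2 and 3 contain a date that each pair shares, but at 2 dpi both pairs have the same date, which does not separate them. Names of replicate 1 contain none.

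Members and gene lists were chosen with earlier results of these data known. The 25 pathway and 13 marker lists held 989 symbols, of which 935 matched in the tables, 20 by reference names and 34 not at all. Genes were named by a rule: called, with a gene symbol, pair ratios of 7 dpi all on 1 side of those of 2 dpi, a highest group mean of at least 5 CPM and at least 3 counts in each group. Of these the 10 largest differences and 5 smallest adjusted p in each direction were taken. Up to 4 genes in each direction short of 3 counts in a group were added without a fold, as were up to 4 called genes of each list (the most abundant member where none was called) and rpe65a. Other list members named were chosen after their values were seen. A single called gene was left out of the genes named and is not reported here. Alternatives used limma 3.58.1 and DESeq2 1.42.0. The procedure was also run on counts simulated from the pair means and dispersions of these data. Such counts hold the pairs by construction, so they cannot show whether the pairing is right. Counting intervals are exact at 95% and cover counting error only.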

Additional observations from a re-analysis of the deposited data

Results flagged for a closer look

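The ablation effect differed between 7 and 2 dpi, by the test of the difference itself, in 443 genes. For 26 called genes named in the text every pair at 7 dpi also lay on the other side of equality from every pair at 2 dpi. Ablated libraries were above their partners at 2 dpi and below them at 7 dpi for scpp8 (log2 difference -9.32), cbx7a (-5.43), bag3 (-4.59), gas6 (-4.09), nolc1 (-3.23), spry4 (-2.45), trib3 (-1.90), dusp6 (-1.89), ncl (-2.65) and dio2 (-2.51). They were below their partners at 2 dpi and above them at 7 dpi for the cell cycle and chromatin genes aurkb (7.24), top2a (6.01) and hist1h4l_17 (6.86). The same held for the progenitor and regulatory genes ascl1a (7.14), six3b (4.74), sox2 (3.99) and id1 (4.42). It also held for cxcr4b (11.25, resting on 3 counts in ablated cells at 2 dpi), apoc2 (6.30), crabp1a (6.23) and vim (2.69), and for mgst1.1 (3.09), tuba1a (2.96), tuba1c (2.25) and tubb2b (1.99). For tpma (adjusted p = 0.0168), with 2 counts in ablated and 6181 in unablated cells at 2 dpi, the ratio of unablated to ablated counts was 2720 with a 95% counting interval of 752 to 22400, and unablated replicate 1, the library with 1520 CPM of muscle markers, held nearly all of them. Over all called genes, 72 of the 251 with a lower effect and 96 of the 192 with a higher effect turned round in this way. Genes called for a large difference turn round more often by selection. Pair ratios did not overlap in 25.8% of all tested genes, and how many of those turned round was not counted. At 7 dpi no effect by itself passed the threshold in edgeR, 0 genes against 2436 at an unadjusted p below 0.05, so the side on which the 7 dpi pairs lie is a description.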

How the results depend on the processing

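The number of genes whose effect differed was 443. It was 0 with no replicate block, 862 with all 18 libraries, 687 with no filter on low counts, 866 with a CPM of at least 5 in 3 or more libraries, 0 with replicates 2 and 3 alone, 867 by limma-voom, 141 by limma on log2(TPM + 1) and 2134 by DESeq2. Leaving out 1 pair gave 0 to 452: 76, 452 and 307 without replicate 1, 2 and 3 at 7 dpi, and 1, 0 and 0 without those at 2 dpi. It was 452 with DESeq2 size factors and 417 without robust estimation. Effects at 7 dpi numbered 0 in the main model, 1 with all 18 libraries, 42 with no filter, 4 with the stricter filter, 19 by limma-voom, 986 by DESeq2 and 0 to 1 without a pair. Effects at 2 dpi numbered 2303 in the main model, 0 with no replicate block, 421 with replicates 2 and 3 alone, 4181 by DESeq2 and 661 to 3006 without a pair. Fewer samples enter the fits that lack a pair, and the cause of the other changes was not tested.

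Every called gene kept its direction in each alternative that gave it a value. The alternatives reuse the libraries in which the called genes were selected, so this is no independent support. The share with a higher effect was 43.3%, but 54.8% by DESeq2, 27.0% on TPM and 32.3% without replicate 2 at 7 dpi, and 51.3% and 52.4% among calls without replicates 1 and 3 at 7 dpi. The ribosome biogenesis median stayed between -2.32 and -1.96, and that of replication and mitosis between 1.06 and 3.40. The median of all genes moved between -0.14 and 0.08. Among uncalled genes, insig1 ran from -0.29 to 0.73 without a pair (main value 0.26) and was -0.055 on TPM. epcam ran from -8.76 to 0.14 (main -2.07) and gch2 from -1.28 to 0.31 (main -0.48), and egfl7 turned to -0.93 with no replicate block. The mitochondrial share differed by 6.2 percentage points, and by 5.00 to 7.76 without a pair. Leaving out pairs for the mitochondrial share was added after seeing the data. How depth bears on the calls was not tested.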

Other observations

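Beyond the lists, several gene families held calls, and they were chosen after their values were seen. Their counts are to be read against the 1.36% of all tested genes called lower and the 1.04% called higher. Of 20 cytosolic aminoacyl-tRNA synthetases, the enzymes that charge tRNA for translation, 9 (45.0%) had a lower effect at 7 dpi, among them kars (-1.95, adjusted p = 0.0233), nars (-1.88, adjusted p = 0.0256) and gars (-2.37, adjusted p = 0.0274). All 20 had a negative difference, with median effects of 0.03 at 7 dpi and 2.01 at 2 dpi. Of 14 mitochondrial synthetases 0 were called (median difference -1.49). Translation initiation factors had 7 calls lower of 62 (median -0.76), mitochondrial import subunits 5 of 27 (median -1.10), cct chaperonins 2 of 8 (median -1.47) and nuclear transport receptors 5 of 23 (median -1.28), with 0 higher in each. In the other direction, glutathione S-transferases, which conjugate reactive compounds to glutathione, had 5 calls higher of 21 (23.8%), and 17 of them were positive. gstt1b led with 3.47 (adjusted p = 0.0273), and mgst1.1 and gsta.1 followed with 3.09 and 2.19 (adjusted p = 0.0319 and 0.0251). Tubulins split, with tuba1a, tuba1c and tubb2b called higher and tubb6 called lower (-3.57, adjusted p = 0.036). These families were picked for how they moved, so their counts support nothing further.

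The 4 dpi libraries were not used in the comparison. The title of unablated replicate 1 at 4 dpi names it as drug-treated, but its description in the labels calls that title a mistake, and it was taken as unablated here. For the 251 genes with the lower effect, the median pair ratio was 2.28 at 2 dpi, 0.90 at 4 dpi and -0.06 at 7 dpi, and 221 genes had their 4 dpi value between the others. For the 192 with the higher effect it was -2.12 at 2 dpi, -0.56 at 4 dpi and 0.56 at 7 dpi, with 183 between. Over all tested genes 8432 of 18472 lay between. The members were chosen for a difference between 2 and 7 dpi, which places 4 dpi values between them more often. For all 45 ribosome biogenesis genes the median was 2.41 at 2 dpi, 0.79 at 4 dpi and 0.27 at 7 dpi, and 39 were nearer to the 7 dpi value. For the 42 replication and mitosis genes it was -1.43 at 2 dpi, 0.33 at 4 dpi and 0.63 at 7 dpi, and the 3 pairs at 4 dpi gave 0.97, -1.15 and 1.03, so the pairs did not share a sign.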
